A study of Mus musculus with 6 samples.

Results

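The genes described here are the nuclear-encoded subunits of respiratory complexes II, III, IV and V, 41 genes in all, measured in muscle that lacks TFEB, a transcription factor of lysosomal and metabolic genes. A gene was taken where a probe set of the array carried its symbol alone, and its brightest probe set over the 6 arrays was read. Of the 41 genes, 39 were found by symbol and Atp5f1 was found under the newer symbol Atp5pb, so that 40 of the 12393 genes with a probe set of their own were members. They are 4 of 4 listed genes of complex II, 9 of 9 of complex III, 12 of 13 of complex IV and 15 of 15 of complex V. The expression of Cox7b, a small subunit of complex IV, was not analysed here, and only its promoter window is counted below. The samples are total RNA from the muscle of 3 wild-type (WT) and 3 Tcfeb knockout (TFEB KO) C57BL/6 mice, all 1 month old, and each mouse has its own Affymetrix array. The knockout was restricted to muscle by breeding floxed Tcfeb mice with MLC1f-Cre mice, whose Cre is driven by a fast myosin light chain promoter, so non-muscle cells of the tissue keep the gene. The sources used here do not say whether the WT mice carried the floxed allele or the Cre, nor which muscle was dissected. Values are log2 units made by the authors with RMA, a method that removes background, brings the arrays to one distribution and combines the probes of a probe set.

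Electrons enter complex III from complex II, which oxidizes succinate in the tricarboxylic acid cycle, and from other carriers that reduce ubiquinone. Complex III passes them through cytochrome c to complex IV, which reduces oxygen, and complexes III and IV pump protons that complex V uses to make ATP. Most subunits are nuclear genes, and striated muscle uses its own isoforms of some complex IV subunits, Cox6a2, Cox7a1 and Cox8b, in place of the ubiquitous Cox6a1, Cox7a2 and Cox8a. NRF1, GABPA, YY1 and the estrogen-related receptors are known regulators of such genes, and TFEB binds E-box-like CLEAR elements.

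Promoter sequence is shown for 4 members, since motifs for these factors were searched in all members with a window. Sdhb and Sdhd are complex II genes among the 8 with the smallest p, Cox8b is the muscle isoform with the lowest fold change, and Atp5l carries 4 motifs and did not read lower in TFEB KO muscle. The 250 bases before each annotated RefSeq start follow, 5′ to 3′ on the strand of the gene in build GRCm38.p6, with motif matches in capitals. They lie at chr4:140961021-140961270, plus strand (Sdhb), chr9:50603850-50604099, minus strand (Sdhd), chr7:140900447-140900696, minus strand (Cox8b) and chr9:44920743-44920992, minus strand (Atp5l).
Sdhb: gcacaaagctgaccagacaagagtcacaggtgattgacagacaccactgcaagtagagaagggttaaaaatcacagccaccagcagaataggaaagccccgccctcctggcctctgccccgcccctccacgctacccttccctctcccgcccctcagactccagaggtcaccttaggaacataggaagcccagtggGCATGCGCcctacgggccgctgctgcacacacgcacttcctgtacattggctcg
Sdhd: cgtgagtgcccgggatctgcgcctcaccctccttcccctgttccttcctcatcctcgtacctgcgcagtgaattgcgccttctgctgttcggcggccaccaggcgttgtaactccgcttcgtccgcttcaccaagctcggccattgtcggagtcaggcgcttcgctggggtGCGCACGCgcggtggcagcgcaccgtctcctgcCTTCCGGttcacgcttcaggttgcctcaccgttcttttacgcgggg
Cox8b: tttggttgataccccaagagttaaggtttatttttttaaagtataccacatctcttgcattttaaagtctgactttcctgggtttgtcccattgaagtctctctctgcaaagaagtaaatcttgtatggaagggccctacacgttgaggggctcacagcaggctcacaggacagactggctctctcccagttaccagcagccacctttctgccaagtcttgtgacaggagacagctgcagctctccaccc
Atp5l: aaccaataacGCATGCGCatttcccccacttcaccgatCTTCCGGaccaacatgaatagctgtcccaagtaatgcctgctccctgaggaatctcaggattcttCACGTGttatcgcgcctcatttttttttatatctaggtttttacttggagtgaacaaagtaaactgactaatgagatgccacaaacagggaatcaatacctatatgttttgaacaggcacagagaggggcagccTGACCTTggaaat
The capitals of Sdhb mark an NRF1 motif that begins 54 bases before the start. Those of Sdhd mark an NRF1 motif at 79 bases and an ETS motif, the kind that GABPA binds, at 46 bases. In Atp5l they mark an NRF1 motif at 240 bases, an ETS motif at 212, an E-box at 147 and an ERRA motif at 13. The window of Cox8b holds none of the motifs. Matches after the start, such as an ETS motif of Sdhb, are counted below but not shown.

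Windows of 250 bases before and 50 after the start exist here for 32 members, 3 of them with more than 1 window, and both strands were searched. The NRF1 motif (GCGCANGC) was found in 14 of the 32, or 43.8%, and in 11.2% of all 27025 genes with a window. The ETS motif (CCGGAAG) was found in 12 members, or 37.5%, and in 9.93% of all genes. The ERRA motif (AAGGTCA) was found in 5 members, or 15.6% against 5.38%, and the YY1 motif (AAGATGGC) in 3 members, or 9.38% against 3.19%. The E-box (CACGTG) was found in Atp5f1, Atp5g1, Atp5g3 and Atp5l, or 12.5% of members against 8.09% of all genes. The longer CLEAR core (TCACGTGA), which contains the E-box, was found in 0 of the 32 and in 1.12% of all genes. Of the 8 members with the smallest p, 6 have a window, and 3 of these, Sdhb, Sdhd and Uqcrc1, hold the NRF1 motif and 0 hold the E-box. These matches are descriptions of the letters in a window and were not tested.

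The study lists predicted CLEAR sites farther upstream in genes that it found lower on these arrays, and a mouse site is listed for Sdhb and for Cox8b. The sites of these genes are shown as examples, and the study's list is not given in full here. Both genes are also among the 8 members with the smallest p. The stretch of 11 bases that the listed sites share is in capitals.
Sdhb: agCTCAGGTGACTa
Cox8b: gtCTCAGGTGACTg
Neither 14-base site lies in the 250 bases shown above, and the shared stretch does not contain CACGTG. The study picked the genes of its list from these same arrays, so the sites are no independent evidence of a direction. It called genes lower at an FDR under 0.05, while limma here gave adjusted p of 0.171 for Sdhb and 0.141 for Cox8b.

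Tfeb itself read 8.61, 8.55 and 8.96 on the WT arrays and 7.10, 7.23 and 7.04 on the TFEB KO arrays (log2 fold change -1.58, SE 0.13, adjusted p = 0.00787 from limma). The sources used here do not say whether its probe set covers the exons that were removed. Fiber genes such as Acta1 (14.93 in WT, 14.88 in TFEB KO) and Ckm (14.82 and 14.80) stood at the top of the scale. Arrays correlated at 0.992 to 0.9967 within a group and at 0.9889 to 0.9934 between groups.

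Taken as single genes, 0 of the 40 measured subunits passed an adjusted p of 0.05 in limma in either direction, where 0.702% of all genes were called lower and 0.871% higher in TFEB KO muscle. At an unadjusted p under 0.05, 8 members lay lower and 0 higher, against 8.66% of all genes lower and 8.49% higher. The methods' t-test called 0 of all 12393 genes after adjustment, and so 0 members. Without adjustment it called 10 members lower and 1 higher, against 1037 and 809 of all 12393 genes. The 8 are Sdhb and Sdhd of complex II, Uqcrc1 and Cyc1 of complex III, Cox8b of complex IV, and Atp5a1, Atp5b and Atp5d of complex V. Their fold changes lay between -0.23 and -0.39, or -14.8% to -23.8% on the linear scale. In 14 members the TFEB KO arrays all lay below the WT arrays (12.9% of all genes), and in 3 members all lay above (10.8% of all genes). The median log2 fold change was -0.05 over the 40 members, with 28 below 0 and 12 above, and -0.01 over all genes. It was 0.00406 over the 172 other genes whose mean level was at least 12.52, the lower quartile of the members. Of these 172 genes, 12 lay lower and 17 higher at an unadjusted p under 0.05. The TFEB KO arrays all lay below WT in 36 of the 172 and all above in 36. The plot of fold changes by complex shows the members in order.

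**Figure D1:**
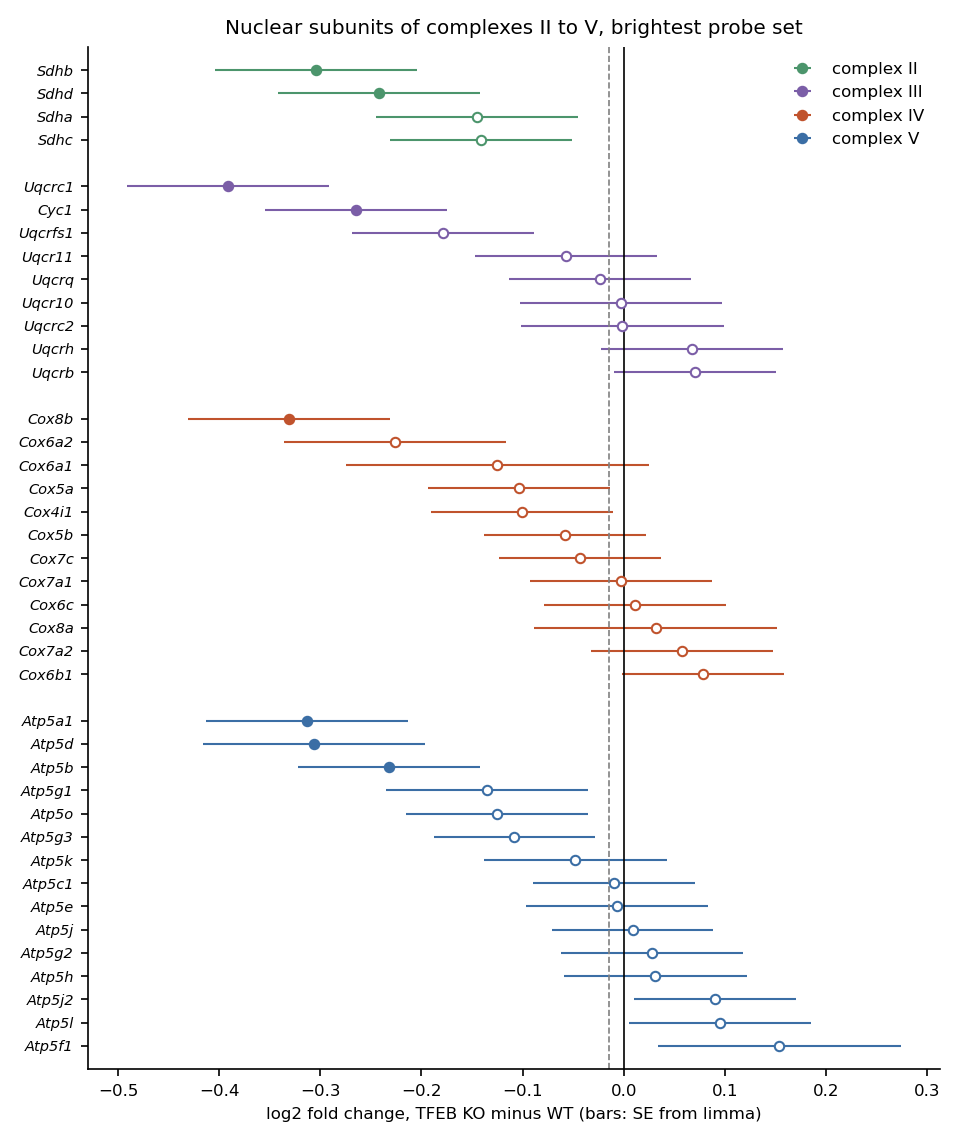
Log2 fold change (x axis, TFEB KO minus WT, 3 arrays each) of the 40 measured members (y axis), grouped by complex, with SE bars from limma. Filled points are the 8 members with an unadjusted p under 0.05, all left of 0, the solid line is 0 and the dashed line is the median of all genes at -0.01.

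Complex II had the lowest median of the complexes, -0.19, with its 4 subunits all below 0 and 2 of them at an unadjusted p under 0.05. Its array medians relative to the WT mean of each gene were -0.01, -0.01 and 0.01 in WT and -0.26, -0.16 and -0.19 in TFEB KO. The 3 TFEB KO arrays therefore lay below all 3 WT arrays for this complex.

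Sdhb, the iron-sulfur subunit of succinate dehydrogenase whose promoter is shown above, read 13.23, 13.25 and 13.17 in WT and 12.78, 13.05 and 12.90 in TFEB KO (log2 fold change -0.30, SE 0.10, adjusted p = 0.171). The groups did not overlap, and KO 1 was the lowest array. Sdhd, a membrane anchor, read 12.25, 12.17 and 12.08 in WT and 12.03, 11.90 and 11.85 in TFEB KO (-0.24, SE 0.10, adjusted p = 0.243). Here too the groups did not overlap, and the lowest WT array stood 0.05 above the highest TFEB KO array. Sdhc, the other anchor, read 11.30, 11.31 and 11.41 in WT and 11.13, 11.17 and 11.28 in TFEB KO (-0.14, SE 0.09, adjusted p = 0.478), and a dimmer probe set of it gave -0.30 (adjusted p = 0.187). Sdha, the flavoprotein that binds succinate, gave -0.15 (SE 0.10, adjusted p = 0.535) on its brightest probe set, where the groups overlapped. Its second probe set read 12.56, 12.60 and 12.56 in WT and 12.20, 12.38 and 12.30 in TFEB KO (-0.28, SE 0.09, adjusted p = 0.164), without overlap. In this complex Sdhd was the exception among second probe sets, with 0.07 on a probe set of mean level 8.23.

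**Figure D2:**
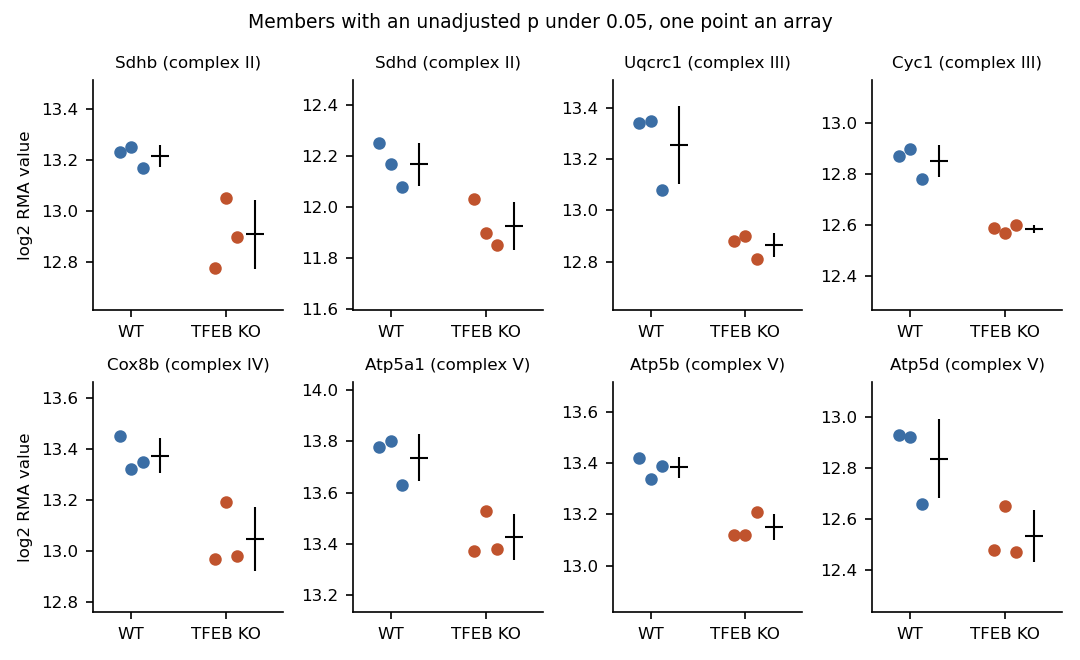
Log2 RMA value (y axis) on each of the 3 WT and 3 TFEB KO arrays for the 8 members with an unadjusted p under 0.05, with the mean and SD beside the points on panels of one common span that do not start at 0. In all 8 the highest TFEB KO array lies below the lowest WT array.

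In complex III the lower values lay in the core protein Uqcrc1 and the electron-carrying subunits, and the small subunits lay near 0 on their brightest probe sets. As for complex V below, this sorting by role is a description made after the values were seen. Uqcrc1 read 13.34, 13.35 and 13.08 in WT and 12.88, 12.90 and 12.81 in TFEB KO. Its log2 fold change of -0.39 (SE 0.10, 95% interval -0.63 to -0.16, adjusted p = 0.103) was the lowest of the 40, and its adjusted p passed the threshold in 1 alternative, trended and robust moderation (adjusted p = 0.0462). WT 3 was the lowest WT array and still lay above all TFEB KO arrays. Cyc1, the cytochrome c1 that hands electrons to cytochrome c, read 12.87, 12.90 and 12.78 in WT and 12.59, 12.57 and 12.60 in TFEB KO (-0.26, SE 0.09, adjusted p = 0.168). The SD of its TFEB KO arrays was 0.01. Uqcrfs1, the Rieske iron-sulfur protein, read 13.14, 13.21 and 13.08 in WT and 12.91, 13.01 and 12.97 in TFEB KO (-0.18, SE 0.09, adjusted p = 0.345), again without overlap.

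Uqcrc2, the second core protein, overlapped between the groups, with a 95% interval of -0.22 to 0.22, and its dimmer probe set gave 0.22 (SE 0.12, adjusted p = 0.413). The 5 small subunits Uqcrb, Uqcrh, Uqcrq, Uqcr10 and Uqcr11 ranged from -0.06 to 0.07, and their groups overlapped. The probe sets of Uqcr10 disagreed. Its brightest read 12.60, 12.55 and 12.40 in WT and 12.45, 12.66 and 12.43 in TFEB KO. Its second read 10.60, 10.68 and 10.60 in WT and 10.91, 10.93 and 10.87 in TFEB KO (0.27, SE 0.08, adjusted p = 0.15). The dimmest gave 0.36 (SE 0.09, adjusted p = 0.0963), and on both dimmer probe sets all TFEB KO arrays lay above all WT arrays. The median of complex III was -0.02, with 7 of 9 genes below 0, and its array medians overlapped between the groups (-0.07 to 0.05 in WT, -0.08 to 0.04 in TFEB KO).

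The 12 measured subunits of complex IV had a median of -0.05, with array medians of -0.01 to 0.02 in WT and -0.07 to -0.02 in TFEB KO, and 1 of them, Cox8b, lay lower at an unadjusted p under 0.05. The 6 measured subunits used in all tissues, Cox4i1, Cox5a, Cox5b, Cox6b1, Cox6c and Cox7c, ranged from -0.10 to 0.08. Cox5a, which with Cox4i1 forms an early assembly step around the catalytic core, read 13.74, 13.87 and 13.82 in WT and 13.70, 13.72 and 13.71 in TFEB KO (-0.10, SE 0.09, adjusted p = 0.595). The lowest WT array stood 0.03 above the highest TFEB KO array, while its other probe sets gave 0.04 and 0.03. Cox6b1, which faces the intermembrane space, was the one subunit of complex IV with all TFEB KO arrays above WT (13.53, 13.58 and 13.54 against 13.59, 13.67 and 13.64; 0.08, SE 0.08, adjusted p = 0.688). Cox7c was read at 6.03 in WT and 5.99 in TFEB KO, below the array medians of 6.48 to 6.54, on the brighter of its 2 probe sets, so these values bear little on its transcript.

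The muscle isoforms of complex IV and the ubiquitous isoforms they replace were compared within each array. The levels of different probe sets cannot be set against each other, and so the difference of muscle minus ubiquitous isoform was compared only between the groups. Cox8b read 13.45, 13.32 and 13.35 in WT and 12.97, 13.19 and 12.98 in TFEB KO (-0.33, SE 0.10, adjusted p = 0.141). Cox8a read 9.59, 9.56 and 9.57 in WT and 9.84, 9.54 and 9.44 in TFEB KO (0.03, SE 0.12, adjusted p = 0.927). The COX8 difference was 3.80 ± 0.05 (SD, n = 3) in WT and 3.44 ± 0.27 (SD, n = 3) in TFEB KO, a shift of -0.36 toward the ubiquitous isoform with no overlap. The two-sided exact permutation p was 0.1, which is the lowest value possible with 3 arrays a group. Adjusted over the 3 pairs, the p was 0.3, and KO 1, with Cox8b lowest and Cox8a highest, gave the lowest difference, 3.13. Without KO 1 the shift was -0.207.

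Cox6a2 read 13.61, 13.55 and 13.57 in WT and 13.17, 13.50 and 13.39 in TFEB KO (-0.23, SE 0.11, adjusted p = 0.329), without overlap. Cox6a1 read 11.52, 11.59 and 11.35 in WT and 11.69, 11.28 and 11.11 in TFEB KO (-0.13, SE 0.15, adjusted p = 0.734), so KO 1 was the highest array for the ubiquitous isoform and the lowest for the muscle one. The COX6A shift was -0.10 (exact permutation p = 0.9, adjusted p = 0.9) and turned to 0.159 without KO 1. Cox7a1 read 12.26, 12.45 and 12.34 in WT and 12.36, 12.26 and 12.42 in TFEB KO, with a 95% interval of -0.22 to 0.21. Cox7a2 read 13.34, 13.39 and 13.43 in WT and 13.54, 13.42 and 13.38 in TFEB KO (0.06, SE 0.09, adjusted p = 0.799). The COX7A shift was -0.06 (exact permutation p = 0.5, adjusted p = 0.75), with overlapping groups. Among the muscle isoforms, Cox8b and Cox6a2 thus lay below WT on all TFEB KO arrays, and Cox7a1 did not.

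**Figure D3:**
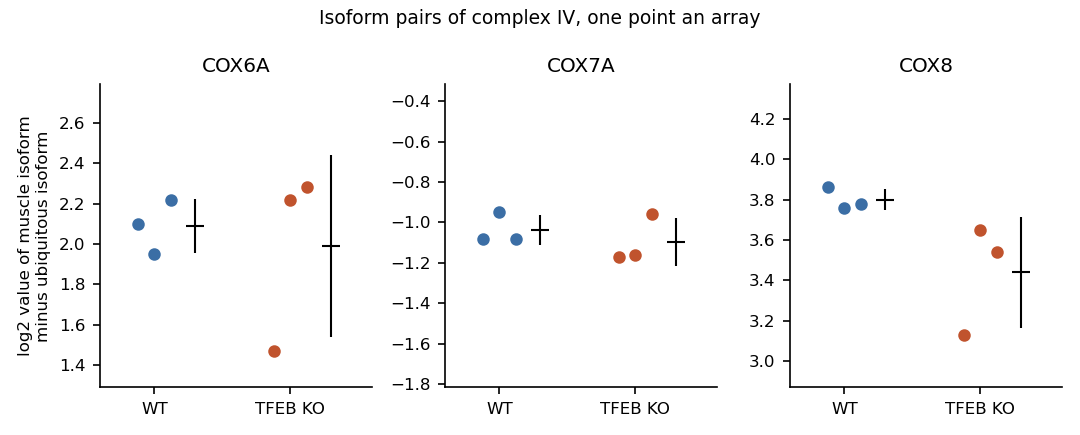
Log2 value of the muscle isoform minus that of the ubiquitous isoform (y axis) on each array for the COX6A, COX7A and COX8 pairs, with mean and SD beside the points on panels of one common span. The TFEB KO points of COX8 lie below the WT points, and KO 1 is the lowest point of COX6A and COX8.

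Complex V, the ATP synthase, had a median of -0.01 over 15 subunits, with 9 below 0, and its array medians overlapped between the groups (-0.05 to 0.04 in WT, -0.06 to 0.01 in TFEB KO). Its lower values lay in F1, the part that makes ATP. Of the 5 subunits of the F1 head and central stalk, 3 lay lower at an unadjusted p under 0.05, and of the 10 of the c ring, peripheral stalk and membrane part, 0 did. This division by role was made after the values were seen and is a description.

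Atp5a1, the alpha subunit, read 13.78, 13.80 and 13.63 in WT and 13.37, 13.53 and 13.38 in TFEB KO (-0.31, SE 0.10, adjusted p = 0.149). Atp5b, the catalytic beta subunit, read 13.42, 13.34 and 13.39 in WT and 13.12, 13.12 and 13.21 in TFEB KO (-0.23, SE 0.09, adjusted p = 0.216). The groups of both genes were apart, and a second bright probe set of Atp5a1 gave -0.20 (SE 0.08, adjusted p = 0.265). Its dimmest probe set gave -0.06 (adjusted p = 0.849) with overlapping groups, and the mean of its 3 probe sets gave -0.19. Atp5d, the delta subunit of the stalk, read 12.93, 12.92 and 12.66 in WT and 12.48, 12.65 and 12.47 in TFEB KO (-0.31, SE 0.11, adjusted p = 0.202). Its groups were apart by 0.02 only, between WT 3 and KO 2, and its second probe set gave -0.22 (SE 0.10, adjusted p = 0.283). Atp5c1 and Atp5e, the gamma and epsilon subunits of the same stalk, each gave -0.01 with overlapping groups.

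The c ring is built from 1 mature protein that 3 genes encode. Atp5g1 read 13.27, 13.31 and 13.10 in WT and 13.05, 13.15 and 13.08 in TFEB KO (-0.13, SE 0.10, adjusted p = 0.527). Atp5g2 read 12.37, 12.32 and 12.22 in WT and 12.25, 12.41 and 12.33 in TFEB KO (0.03, SE 0.09, adjusted p = 0.918). Atp5g3 read 13.64, 13.63 and 13.57 in WT and 13.48, 13.54 and 13.50 in TFEB KO (-0.11, SE 0.08, adjusted p = 0.569). The groups of Atp5g3 alone were apart.

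In the peripheral stalk, which holds F1 still against the turning ring, Atp5h and Atp5j lay near 0 (0.03 and 0.01), and Atp5o gave -0.13 (SE 0.09, adjusted p = 0.524). Atp5f1, the b subunit, gave the highest value of all members, 0.15 (SE 0.12, adjusted p = 0.566). Its arrays overlapped at 13.11 to 13.39 in WT and 13.27 to 13.59 in TFEB KO, and its dimmer probe set gave -0.06. The small membrane subunits Atp5j2 and Atp5l lay above WT on all TFEB KO arrays. Atp5j2 read 13.40, 13.39 and 13.40 in WT and 13.52, 13.46 and 13.48 in TFEB KO (0.09, SE 0.08, adjusted p = 0.633), and Atp5l, whose promoter is shown above, gave 0.10 (SE 0.09, adjusted p = 0.63). Atp5k, of the same group, gave -0.05 (SE 0.09, adjusted p = 0.845).

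Besides the brightest probe sets, 24 members carry 35 dimmer ones, of which limma called 0. At an unadjusted p under 0.05, 4 of the 35 lay lower, of Sdha, Sdhc, Atp5a1 and Atp5d, and 2 higher, both of Uqcr10. Over all genes on their brightest probe sets, 8.66% lay lower and 8.49% higher. The dimmer probe set of Atp5o gave 0.27 (SE 0.24, adjusted p = 0.629) against -0.13 on its brightest, and its highest arrays were WT 3 at 11.36 and KO 3 at 11.62.

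RMA values compress near the top of the scanner's range, where the highest value of the table was 14.93. Of the 40 members, 11 had a mean of at least 13.43, within 1.5 of that top, and 2, Uqcrb and Cox5b, were within 1. Of the 8 members with an unadjusted p under 0.05, Atp5a1 was among these 11 and the other 7 lay below. Among the 11 the size of the fold change reached 0.31, and across the 40 genes level and fold change had a Spearman correlation of 0.11, given as a description of genes that share 6 arrays.

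**Figure D4:**
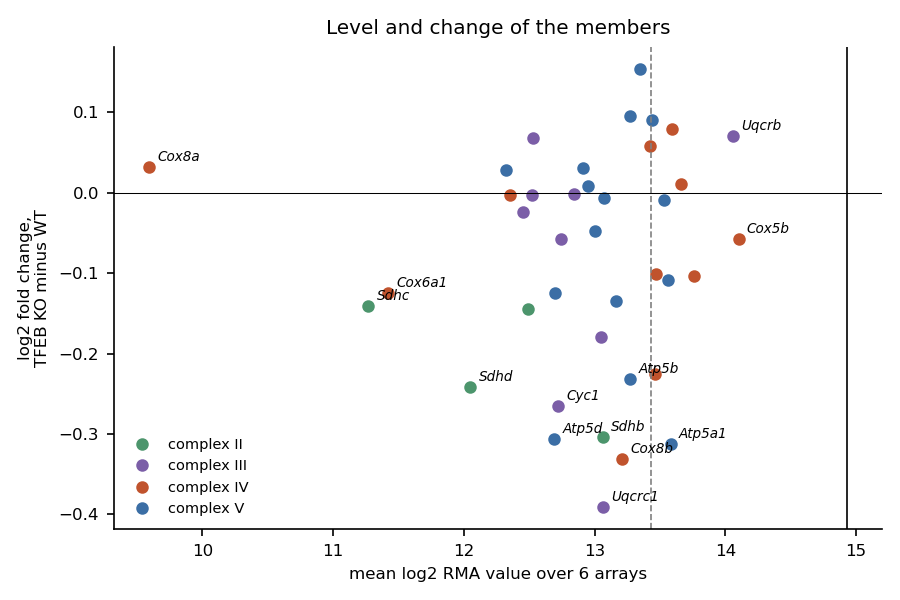
Log2 fold change (y axis, TFEB KO minus WT) against the mean log2 RMA value over 6 arrays (x axis) for the members above a level of 9, which leaves out Cox7c at 6.01, coloured by complex. The dashed line is 13.43 and the solid vertical line the highest value of the table, 14.93; of the 8 members with the smallest p, Atp5a1 alone lies right of the dashed line.

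The genes around these complexes were read from lists. Of the 3 assembly factors of complex II, 5 measured of complex III, 12 of complex IV and 3 of complex V, 0 passed the test, with medians of -0.05, -0.07, -0.05 and -0.19. At an unadjusted p under 0.05 in limma, 0 of the first, 1 lower of the second, 1 lower and 1 higher of the third and 1 lower of the fourth stood out. Bcs1l, which inserts the Rieske protein into complex III, gave -0.29 (SE 0.09, adjusted p = 0.157), and Uqcc1 gave -0.19 (adjusted p = 0.422). Atpaf2, a chaperone of the F1 alpha subunit, gave -0.32 (SE 0.10, adjusted p = 0.162), and Tmem70 gave -0.19 (adjusted p = 0.395). For complex IV, Cox18 gave -0.27 (adjusted p = 0.234) and Coa6 gave 0.28 (adjusted p = 0.183), and for complex II, Sdhaf2 gave -0.20 (adjusted p = 0.382) and Sdhaf4 gave 0.16 (adjusted p = 0.508).

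Of the 6 genes that carry electrons into or out of complex III by other routes, 1 passed the test, 3 lay lower at an unadjusted p under 0.05, and the median of the 6, each below 0, was -0.21. Gpd2, the mitochondrial glycerol-3-phosphate dehydrogenase, fell from 10.83, 11.01 and 11.12 in WT to 10.33, 10.22 and 10.18 in TFEB KO (-0.74, SE 0.10, adjusted p = 0.0225). Of 9 measured other isoforms and late-added subunits, 0 passed, and 2 lay higher at an unadjusted p under 0.05. These were 2010107E04Rik, a small protein of the ATP synthase (0.22, adjusted p = 0.245), and Cyct, the testis cytochrome c (0.23, adjusted p = 0.262), which was read at 4.19 in WT. Of 12 regulators of respiratory genes, 0 passed, 3 lay lower at an unadjusted p under 0.05 and 9 lay below 0, with a median of -0.15. Ppara, a nuclear receptor of fatty acid oxidation, gave -0.65 (SE 0.15, adjusted p = 0.0783), and Ppargc1b, a coactivator of mitochondrial genes, gave -0.46 (SE 0.12, adjusted p = 0.111). For the NRF1, ETS, ERRA and YY1 motifs searched above, the factors Nrf1, Gabpa, Esrra and Yy1 gave -0.13, 0.07, -0.18 and -0.08. Their adjusted p were 0.642, 0.835, 0.387 and 0.848. All TFEB KO arrays of Esrra lay below WT, and the groups of the others overlapped.

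The 32 measured nuclear subunits of complex I had a median of -0.04, 23 of them below 0, 5 lower and 1 higher at an unadjusted p under 0.05, and 0 past the test. Ndufv1, the flavoprotein that binds NADH, gave -0.40 (SE 0.11, adjusted p = 0.11), and Ndufa10 gave -0.39 (SE 0.10, adjusted p = 0.111). Of 7 measured mitochondrial membrane genes outside the chain, 0 passed, 1 lay lower at an unadjusted p under 0.05 and 4 lay below 0, with a median of -0.10. Among them Immt, which shapes the cristae, gave -0.24 (SE 0.09, adjusted p = 0.233), and Phb2, a prohibitin, gave -0.18 (SE 0.11, adjusted p = 0.45).

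The RNA is of whole muscle, where fewer cells of a type and less RNA per cell cannot be told apart. Slow-fiber genes, which mark fibers rich in mitochondria, had a median of -0.66 over 9 genes, all below 0, 0 past the test and 5 lower at an unadjusted p under 0.05, with Myh7 at -1.40 (adjusted p = 0.0688) and Myl3 at -0.90 (adjusted p = 0.0985). Their array medians were 0.29, 0.46 and -0.83 in WT and -0.80, -0.52 and -0.63 in TFEB KO, so WT 3 read like the TFEB KO arrays. On the same arrays the members' medians were 0.03, 0.02 and -0.03 in WT and -0.07, -0.04 and -0.07 in TFEB KO. Without WT 3, 7 members lay lower at an unadjusted p under 0.05 and 0 higher, and the smallest adjusted p was 0.107. WT 1 and WT 2 lay above all TFEB KO arrays in slow-fiber median, so this removal does not even out the fibers. The count lower was 5 without WT 1 and 5 without WT 2, with a smallest adjusted p of 0.332 and 0.269 in limma. It was 7 without KO 2 and 6 without KO 3, with 0.126 and 0.238. The share of all genes at this threshold is not given for fits with 1 array left out. These counts, and that without WT 3, therefore cannot be set against a background. The 9 fast-fiber genes had a median of 0.00333 and 0 calls at either threshold, all 9 within 1.5 of the top of the scale, with Atp2a1 at -0.13 (adjusted p = 0.506) and Actn3 at -0.10 (adjusted p = 0.596). The 8 general fiber genes had a median of -0.03, 0 past the test and 1 lower at an unadjusted p under 0.05, with Ryr1 at -0.52 (adjusted p = 0.109) and Pygm at -0.16 (adjusted p = 0.385).

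Of 17 macrophage genes, 6 rose past the test, among them Ctss (2.07), Mpeg1 (1.75), Tyrobp (1.33) and Itgam (0.65), with list medians by array of -0.33 to 0.31 in WT and 0.74 to 1.46 in TFEB KO. Of 14 endothelial genes, 7 fell past the test, among them Rasip1 (-0.96), Vwf (-0.86), Egfl7 (-0.74) and Kdr (-0.89), with list medians by array of -0.06 to 0.05 in WT and -0.72 to -0.45 in TFEB KO. White adipocyte genes were highest on KO 1, where their array median was 1.96 against -0.26 to 0.42 on the WT arrays, and 0 of 4 measured passed at either threshold. Adipoq read 11.90 on KO 1 and 9.22 to 10.35 on the WT arrays, and Cidec gave 0.67 (adjusted p = 0.543). Without KO 1, 7 members lay lower at an unadjusted p under 0.05 and 0 higher. Here too no share of all genes is given. Brown adipocyte genes, which include Ucp1 at 4.02 in WT and 3.92 in TFEB KO, and cardiomyocyte genes passed in 0 of 3 and 0 of 6, and at an unadjusted p under 0.05 in 0 and in 1 each way. Among these, Elovl3 gave 0.23 (adjusted p = 0.386), Cidea -0.19 (adjusted p = 0.7), Tnnt2 0.64 (adjusted p = 0.104) and Myh6 -0.32 (adjusted p = 0.227). The part of these cell types and fibers in the members' values was not tested.

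**Figure D5:**
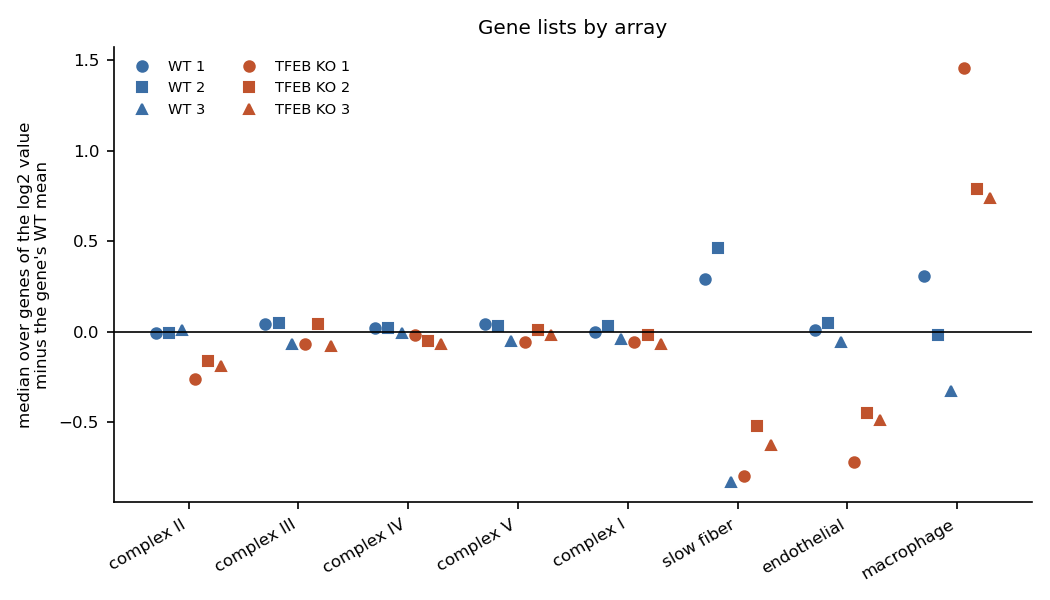
Median over the genes of each list (x axis) of the log2 value minus the gene's WT mean (y axis), on each WT and TFEB KO array. The 3 TFEB KO arrays lie below WT for complex II, from -0.26 to -0.16, and by less for complex IV, from -0.07 to -0.02, while for complexes III and V, complex I and slow fibers the groups overlap.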

How the data were processed

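Total RNA of 6 muscles, 3 WT and 3 TFEB KO, was hybridised to Affymetrix arrays, 1 per mouse. The authors deposited log2 values made with RMA through affy, per the submitters' processing notes, whose versions these sources do not give. Quantile normalization within RMA would remove a change shared by most genes. Arrays give no depth, and their number limits the precision.

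Of 22690 probe sets, 64 controls were left out and 22626 tested with limma 3.58.1 (R 4.3.3; lmFit, eBayes), two-sided, with Benjamini-Hochberg adjustment over all and a threshold of 0.05. In the platform annotation 20380 probe sets name 1 gene, 691 several and 1555 none. Of the listed genes, 4 were matched by synonym through RefSeq (GRCm38.p6). Percentages of all genes count 12393 genes on their brightest probe set. Isoform shifts were tested by exact permutation. Tables and figures used Python 3.11.15, pandas 2.3.3, NumPy 2.4.6, SciPy 1.17.1 and matplotlib 3.10.9. On data simulated for this comparison (22626 probe sets), limma recovered 11.7% of changes of 0.5 and 85.3% of changes of 1, with 3.96% of calls false. The noise was drawn independently for each value from limma's own fitted model, so the 3.96% does not check that model. Both sizes are larger than the fold change of any member (-0.39 for Uqcrc1), so recovery at the members' sizes was not simulated.

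Values by array are given for the 3 members of smallest p in each complex, the isoform pairs, the Atp5g genes and members whose probe sets disagree in sign with an unadjusted p under 0.05, and Cox6b1, Atp5j2, the second probe set of Sdha and the highest member were added after their values were seen. From other lists, up to 4 called genes or the 2 with smallest p are named. Acta1, Ckm, Ucp1, Nrf1, Gabpa, Esrra and Yy1 were added after their values were seen. The members and lists were chosen with earlier results of these data known. The alternatives were array weights, a trended and robust eBayes, a second quantile normalization, a common 75th percentile, removal of dim probe sets, a replicate block, the methods' t-test (named for the study in general, while an FDR is named for the arrays), removal of each array, the average over a gene's probe sets, and removal of members near the top of the scale. No file names a build for the arrays.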

Additional observations from a re-analysis of the deposited data

How the results depend on the processing

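Members past the adjusted threshold numbered 0 in either direction under all alternatives run but 1. Trended and robust moderation called 1 lower, Uqcrc1. The t-test of the study's general methods was also read at an unadjusted p under 0.05, which is no adjusted threshold. It gave 10 members lower (Sdhb, Sdhd, Uqcrc1, Uqcrfs1, Cyc1, Cox8b, Atp5a1, Atp5b, Atp5d and Atp5g3) and 1 higher, Atp5j2. Of all 12393 genes it gave 1037 lower and 809 higher. The median of complex IV moved to -0.0207 with a second quantile normalization and to -0.0229 with members near the top of the scale left out. With 1 array left out the calls were 0 to 0 in both directions, and the medians ranged from -0.0832 to -0.0376 for all members, -0.209 to -0.175 for complex II, -0.0802 to 0.0133 for complex III, -0.0623 to -0.0403 for complex IV and -0.0323 to 0.00511 for complex V. The isoform shifts then ranged from -0.247 to 0.159 for COX6A, which turned positive at 0.159 without KO 1, from -0.128 to -0.016 for COX7A and from -0.469 to -0.207 (without KO 1) for COX8.

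Some members changed sign. With 1 array left out, Uqcr10 ranged from -0.0747 to 0.0416 (positive without WT 1, WT 2, KO 1 or KO 3), Cox6a1 from -0.293 to 0.00107 (positive without KO 3), Cox7a1 from -0.047 to 0.0454 (positive without WT 2 or KO 2), Cox8a from -0.0867 (without KO 1) to 0.115, and Atp5g2 from -0.015 to 0.0693 (negative without WT 3 or KO 2). As the mean of its probe sets, Uqcr10 gave 0.21, Cox8a -0.0462 and Atp5g2 -0.0536, and a second quantile normalization gave Cox8a -0.00406. Same-numbered samples deviated together with r = 0.0876, 0.0477 and 0.265. WT 1 correlated best with KO 2 (0.172), WT 2 with KO 2 (0.0477) and WT 3 with KO 3 (0.265). With 3 arrays a group, these values cannot tell whether the numbers pair the mice. The replicate block called 0 members and changed no call, with an adjusted p of 0.102 for Uqcrc1. With 3 arrays a group, the SE of 0.08 to 0.15 per member limits what could be called, and the causes of these moves were not tested.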
